A study of Mus musculus with 10 samples.

Results

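The comparison of EF1a high with EF1a low cells at medium OSCAR set the P5 libraries against the P4 libraries, 4 of the 10 libraries of a study of mouse small intestinal crypts. OSCAR is a reporter of RNA polymerase II activity made of a green (VeN90) and a red (mCherry) fluorescent protein, whose ratio is high in cells with little elongating polymerase. The brightness of both colours together follows the EF1a promoter that drives the transgene and gives the EF1a gate. All 10 libraries came from EF1a-OSCAR mice of the strain C57BL6/J, which carry the transgene at the Rosa26 locus after a Vasa-Cre had removed its stop cassette, and 10000 live EpCAM+ cells were sorted for each population. P5 is OSCARmed EF1ahigh and P4 is OSCARmed EF1alow, with 2 replicates each. The other populations used below are P1 (OSCARlow EF1alow), P2 (OSCARhigh EF1alow) and P3 (OSCARlow EF1ahigh), also with 2 replicates each. Genes were chosen when the log2 difference in CPM (counts scaled to a common library size) between P5 and P4 had the same sign and was at least 2-fold both in replicate 1 and in replicate 2. Of 13708 genes that passed a filter on low counts, 236 were higher in P5 (1.72%) and 83 were lower (0.605%), and 278 of these 319 were outside a list of G2M phase genes and a list of enterocyte genes.

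Crypts of the small intestine hold stem cells at their base and dividing transit-amplifying progenitors above them. The progenitors give rise to absorptive enterocytes and to the secretory Paneth, goblet, tuft and enteroendocrine cells. Mitosis is run by kinases, kinesin motors, kinetochore proteins and the anaphase-promoting complex, whose genes are transcribed late in the cell cycle. Enteroendocrine cells arise from progenitors that switch on the transcription factor Neurog3, and mature into cells that each secrete a few hormones.

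Poly-A RNA was sequenced, and the authors deposited reads counted per gene without regard to strand. The P5 libraries held 6437900 and 6362446 counts on genes and the P4 libraries 5403910 and 6485823, within 3857612 to 6485823 over the series. Mitochondrially encoded genes took between 3.47% and 5.19% of the counts in P4 and P5, and 59.2% and 36.1% in the libraries labelled P3. The OSCAR transgene was not among the counted names, so the EF1a gate could not be checked by the reporter. Eef1a1, the mouse gene of elongation factor 1-alpha, was at 2715 and 2862 CPM in P4 and at 2509 and 2618 CPM in P5. The epithelial gene Epcam was at 904 and 994 CPM in P4 and at 1037 and 1039 CPM in P5. The libraries labelled P2 carried the secretory genes that the study describes in its P3 gate, so the names P2 and P3 may be exchanged, and some single-gene plots of the study order P4 and P5 the other way round, while its marker-set and cell cycle plots order them as the deposited labels do. All directions below follow the deposited labels, and an exchange of P4 with P5 would turn each of them.

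By edgeR's quasi-likelihood test over the 10 libraries, 0 genes passed an adjusted p of 0.01 between P5 and P4, and the smallest adjusted p was 0.231. At an unadjusted p under 0.05, 278 genes were higher in P5 and 73 were lower. With DESeq2 on the same genes 26 passed as higher (0.19% of all) and 3 as lower (0.0219%), and 28 of these 29 were at least 2-fold apart in both pairs. The exception was Arl6ip1, which was at 160 and 136 CPM in P4 and at 268 and 312 CPM in P5. Without the filter on low counts edgeR called 195 genes, and with the 4 libraries of P4 and P5 alone and a replicate block it called 567. The latter fit left fewer residual degrees of freedom than the 5 of the fit over the 10 libraries. The chosen genes made up 150 of those 195 (76.9%) and 226 of those 567 (39.9%). Choice and calls share the contrast, so such an overlap is in part built in. Because the genes were chosen on this contrast, their own differences are given as descriptions. The same holds for the DESeq2 adjusted p of single genes below, none of which passed edgeR.

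The 236 higher genes had a median log2 difference of 1.48 in replicate 1 and of 1.62 in replicate 2, and the 83 lower genes had medians of -1.49 and -1.37. The median fitted log2 fold change over all genes was 0.01. Both P5 libraries were above both P4 libraries for 189 of the 236, where 16.3% of all genes showed this order. Both were below for 81 of the 83, where 15.3% of all genes did. The rule of choice used the same 4 libraries and favours such an order, so these counts are descriptions. In the remaining 47 higher genes the replicates of a population differed more than the populations did. Levels mattered for precision, since 201 of the higher genes but 33 of the lower genes reached a mean of 20 counts over the 4 libraries. Bulk counts do not tell fewer cells of a type from less RNA per cell.

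**Figure D1:**
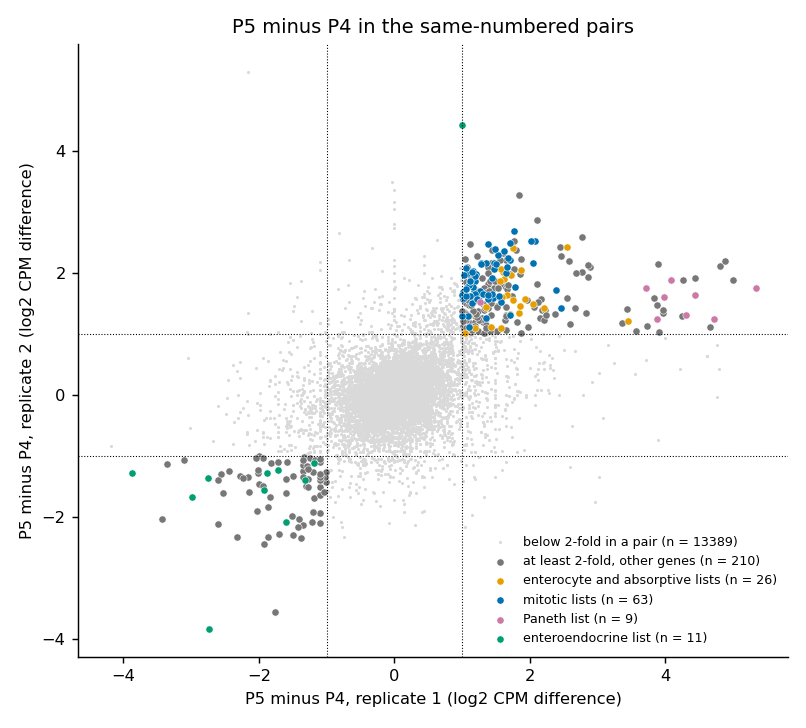
Log2 CPM difference between P5 and P4 in replicate 1 (x axis) against that in replicate 2 (y axis), with 1 point per gene and dotted lines at a 2-fold difference. The 63 mitotic-list genes (blue) lie mostly between 1 and 2.7 on both axes, the Paneth-list genes (pink) lie mostly far to the right with smaller differences in replicate 2, and 10 enteroendocrine-list genes (green) lie at the lower left.

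Genes of mitosis were higher in P5, on the G2M list and outside it. Over 5 lists of mitotic genes (the G2M list; kinases, cyclins and regulators of the anaphase-promoting complex; kinesins, spindle and kinetochore genes; cytokinesis genes; condensins, cohesion and mitotic chromatin genes) 131 genes were measured, of which 63 were at least 2-fold higher and 0 were at least 2-fold lower. In both pairs 128 of the 131 were higher in P5, against 30.8% of all genes, and 119 had both P5 libraries above both P4 libraries. Of the 77 that are not on the G2M list, 32 were at least 2-fold higher and 75 were higher in both pairs. Their median log2 difference was 0.91 in replicate 1 and 1.52 in replicate 2.

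Espl1, which encodes separase, the protease that opens cohesin at anaphase, was at 19.0 and 18.4 CPM in P4 and at 61.1 and 79.5 CPM in P5. Both P5 libraries were more than 3-fold above both P4 libraries, and the fitted log2 fold change was 1.91 ± 0.25 (SE, n = 2 per population). DESeq2 called it at an adjusted p of 3.33e-06. Aspm, a spindle pole protein, was at 17.3 and 14.5 CPM in P4 and at 59.3 and 94.5 CPM in P5. The populations were again fully apart, with a log2 fold change of 2.27 ± 0.31 (SE) and a DESeq2 adjusted p of 1.15e-05. H2afx, which encodes the histone variant H2A.X, was at 34.8 and 39.1 CPM in P4 and at 83.5 and 115 CPM in P5, and DESeq2 called it at an adjusted p of 0.000435.

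Motor and spindle genes with lower counts showed the same order. Kif18a, a kinesin that limits chromosome movement at the metaphase plate, was at 3.31 and 4.95 CPM in P4 and at 14.6 and 23.0 CPM in P5. Troap was at 4.65 and 3.17 CPM in P4 and at 19.9 and 19.6 CPM in P5. Neither gene's populations overlapped, and among the genes outside the G2M and enterocyte lists these 2 were the mitotic-list genes with the largest smaller-of-pair difference. Of the kinesin, spindle and kinetochore list, 34 of 54 genes were at least 2-fold higher and 53 were higher in both pairs.

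Genes of mitotic exit and cytokinesis followed. Prc1, which bundles microtubules of the central spindle, was at 29.4 and 27.8 CPM in P4 and at 65.7 and 113 CPM in P5, and DESeq2 called it at an adjusted p of 0.00381. Kif20a, a kinesin of the central spindle, was at 19.2 and 24.4 CPM in P4 and at 44.4 and 77.3 CPM in P5. Shcbp1 was at 10.2 and 11.7 CPM in P4 and at 27.0 and 37.0 CPM in P5. The populations were apart in each of these, and in all 15 measured genes of the cytokinesis list, of which 7 were at least 2-fold higher.

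Mitotic kinases, cyclins and regulators of the anaphase-promoting complex were all higher in both pairs (32 of 32), and 19 were at least 2-fold higher. Cdkn3, a phosphatase of cyclin-dependent kinases, was at 4.41 and 5.74 CPM in P4 and at 13.8 and 17.0 CPM in P5. Within the G2M list, Aurka, the Aurora A kinase, was at 12.7 and 15.3 CPM in P4 and at 40.8 and 61.8 CPM in P5, and Cdc20, an activator of the anaphase-promoting complex, was at 21.2 and 31.6 CPM in P4 and at 73.4 and 107 CPM in P5. In replicate 2 the P5 library was above that of replicate 1 in each of the mitotic genes named here but Troap.

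Genes of DNA replication showed no such excess. Of 43 S phase genes 0 were at least 2-fold higher, 11 were higher and 18 lower in both pairs, and the median log2 differences were -0.15 and 0.05. Of 40 genes of origin licensing and the replication fork 0 were at least 2-fold apart, with 13 higher and 18 lower in both pairs. Mki67, which is transcribed through the cycle and most highly in G2 and mitosis, was at 286 and 309 CPM in P4 and at 526 and 824 CPM in P5, below 2-fold in replicate 1. Condensin, cohesion and mitotic chromatin genes stood between these groups, with 3 of 24 at least 2-fold higher and 22 higher in both pairs.

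Promoters of mitotic genes are known for CCAAT boxes and for the cell cycle genes homology region (CHR). The promoter sequences below are RefSeq sequences of the build GRCm38.p6 and hold the 250 bases before the annotated start, 5′ to 3′. They belong to 4 mitotic-list genes outside the G2M list that were higher and to 2 enteroendocrine-list genes that were lower. Each set has the largest smaller-of-pair differences among its genes with 1 annotated start and a mean of at least 20 counts. The windows show what the genes that moved together do and do not share next to their starts. Capitals mark matches to these motifs on either strand, and no motif searched is part of another. The CHR was searched as TTTGAA and, as its variant form, as TTTAAA, and 1 or both were in 25.2% of all 32851 promoter windows of this length. The CCAAT box was in 33.8% of them. The core of the motif of the enterocyte factor HNF4, searched as AAGTCCA, was in 3.36% of them and in none of the windows shown.
Kif18a, chr2:109280488-109280737, plus strand: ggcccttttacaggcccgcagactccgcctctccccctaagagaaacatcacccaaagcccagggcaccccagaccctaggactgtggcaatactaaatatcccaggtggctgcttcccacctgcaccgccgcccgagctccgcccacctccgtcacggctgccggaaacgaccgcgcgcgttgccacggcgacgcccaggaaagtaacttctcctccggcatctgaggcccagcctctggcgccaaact
Troap, chr15:99074723-99074972, plus strand: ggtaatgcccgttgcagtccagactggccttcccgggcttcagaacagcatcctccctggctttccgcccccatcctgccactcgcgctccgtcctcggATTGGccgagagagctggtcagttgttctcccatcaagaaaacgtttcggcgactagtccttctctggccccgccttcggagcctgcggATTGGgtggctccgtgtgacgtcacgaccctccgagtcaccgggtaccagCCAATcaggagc
Aspm, chr1:139454523-139454772, plus strand: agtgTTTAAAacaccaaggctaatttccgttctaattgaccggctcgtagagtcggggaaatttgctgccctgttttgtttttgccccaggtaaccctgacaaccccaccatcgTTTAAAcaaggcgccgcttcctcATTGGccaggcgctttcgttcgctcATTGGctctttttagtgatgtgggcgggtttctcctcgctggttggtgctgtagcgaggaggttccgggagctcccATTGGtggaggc
Depdc1a, chr3:159495183-159495432, plus strand: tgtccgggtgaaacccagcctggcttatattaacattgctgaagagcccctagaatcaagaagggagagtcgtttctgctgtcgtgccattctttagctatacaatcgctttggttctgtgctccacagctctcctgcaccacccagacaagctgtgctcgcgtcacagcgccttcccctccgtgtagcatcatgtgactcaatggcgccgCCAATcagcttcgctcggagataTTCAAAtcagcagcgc
Sst, chr16:23890845-23891094, minus strand: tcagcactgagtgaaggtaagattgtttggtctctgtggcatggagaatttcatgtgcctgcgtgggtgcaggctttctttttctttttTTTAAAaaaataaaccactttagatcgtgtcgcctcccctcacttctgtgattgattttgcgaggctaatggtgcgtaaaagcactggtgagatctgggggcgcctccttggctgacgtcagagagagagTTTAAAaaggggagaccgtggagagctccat
Neurog3, chr10:62132840-62133089, plus strand: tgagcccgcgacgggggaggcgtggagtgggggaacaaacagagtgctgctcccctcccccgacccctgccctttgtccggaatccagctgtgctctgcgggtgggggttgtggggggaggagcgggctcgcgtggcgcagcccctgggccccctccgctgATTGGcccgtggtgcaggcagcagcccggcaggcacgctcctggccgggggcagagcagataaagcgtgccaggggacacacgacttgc
The Aspm window held 3 CCAAT and 2 CHR matches, and that of Depdc1a held 1 of each, with the CHR letters starting 16 bases before the start. The Troap window held 3 CCAAT and no CHR match, and the Kif18a window held neither. The Sst window, of a gene lower in P5, held 2 CHR matches and no CCAAT, and the Neurog3 window held 1 CCAAT match. The table held promoters for 49 of the 63 mitotic-list genes that were at least 2-fold higher, for 132 of the other 173 higher genes and for 57 of the 83 lower genes. As this is less than 80% of each group, a comparison of motif shares between the groups is void and none is given.

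Genes of absorption, digestion and detoxification were the next group that was higher in P5, and here the replicates differed as much as the populations. Over 4 lists (xenobiotic, retinoid and steroid metabolism; solute carriers and channels; villus-tip genes; fatty acid oxidation and peroxisomes) 126 genes were measured. At least 2-fold higher were 16, and 0 were at least 2-fold lower. Higher in both pairs were 97 and lower in both were 9. Both P5 libraries were above both P4 libraries in 31 of the 126 (24.6%, against 16.3% of all genes).

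Cubn, which encodes cubilin, the receptor that takes up vitamin B12 with intrinsic factor, was at 33.1 and 5.64 CPM in P4 and at 227 and 35.4 CPM in P5. Among the higher genes outside the 2 lists it had the largest smaller-of-pair log2 difference, 2.77 in replicate 1 and 2.58 in replicate 2. The lower P5 library was only just above the higher P4 library, and the fitted log2 fold change was 2.77 ± 0.98 (SE). Bst1, an ADP-ribosyl cyclase on the cell surface, was at 14.4 and 3.17 CPM in P4 and at 80.0 and 18.4 CPM in P5. Apoc2, the cofactor of lipoprotein lipase, was at 34.2 and 11.6 CPM in P4 and at 249 and 44.7 CPM in P5. In Bst1 and Apoc2 too, the P5 library of replicate 2 lay close above the P4 library of replicate 1.

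Of the 36 solute carriers and channels on their list, 5 were at least 2-fold higher, with the populations overlapping in 3 and apart in 2. Slc13a2, a sodium-coupled dicarboxylate carrier, was at 79.5 and 5.54 CPM in P4 and at 264 and 22.6 CPM in P5. Without P5 replicate 1 its fitted log2 fold change turned from 1.76 to -0.89. Slc5a12, a sodium-coupled lactate carrier that is on no list, was at 20.7 and 2.37 CPM in P4 and at 152 and 11.4 CPM in P5. Slc23a1, a vitamin C transporter, was at 16.7 and 2.67 CPM in P4 and at 50.5 and 12.1 CPM in P5. In these 3 the populations overlapped although both pairs differed by more than 2-fold. Slc34a2, a phosphate carrier, had the replicates in the other order, at 2.94 and 18.7 CPM in P4 and at 8.45 and 40.8 CPM in P5, and its fitted log2 fold change of 1.17 became -0.37 without P5 replicate 2. The populations were apart at low levels in Aqp8 and Cybrd1. Aqp8, a water channel, was at 0.245 and 0.791 CPM in P4 and at 1.83 and 2.96 CPM in P5. Cybrd1, a ferric reductase of iron uptake, was at 0.367 and 0.297 CPM in P4 and at 2.17 and 1.37 CPM in P5. Their values rest on means of 13.5 and 9.5 counts. Cybrd1 was at 164 and 112 CPM in the libraries labelled P2.

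Of the xenobiotic list, 5 of 37 genes were at least 2-fold higher and 35 were higher in both pairs. Cyp2c55, a cytochrome P450, was at 4.90 and 5.34 CPM in P4 and at 18.9 and 22.9 CPM in P5. Its replicates lay close together, and DESeq2 called it at an adjusted p of 0.000774. Cyp2b10, an enzyme induced by the xenobiotic receptor CAR, was at 52.3 and 16.2 CPM in P4 and at 161 and 61.4 CPM in P5. Cyp3a25 was at 56.3 and 20.8 CPM in P4 and at 167 and 76.1 CPM in P5. Both P5 libraries were above both P4 libraries in these 3 genes.

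At the villus tip, Nt5e, the ecto-5′-nucleotidase CD73, was at 0.367 and 0.890 CPM in P4 and at 2.51 and 3.06 CPM in P5. This rests on a mean of 15.8 counts, and Nt5e was at 11.3 and 56.9 CPM in the libraries labelled P2. Ceacam20 was at 10.3 and 8.51 CPM in P4 and at 35.4 and 25.5 CPM in P5. Pmp22 was at 2.69 and 3.46 CPM in P4 and at 32.6 and 8.45 CPM in P5. The populations were apart in these 3, and 5 of 24 genes of the list were at least 2-fold higher. The enterocyte list itself had 10 of 43 genes at least 2-fold higher, 42 higher in both pairs and 8 with both P5 libraries above both P4 libraries (18.6%, near the 16.3% of all genes), with median log2 differences of 0.69 and 0.70. Its summed level was 23957 and 10607 CPM in P4 and 38128 and 17350 CPM in P5, so the replicate 2 library of P5 was below the replicate 1 library of P4.

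**Figure D2:**
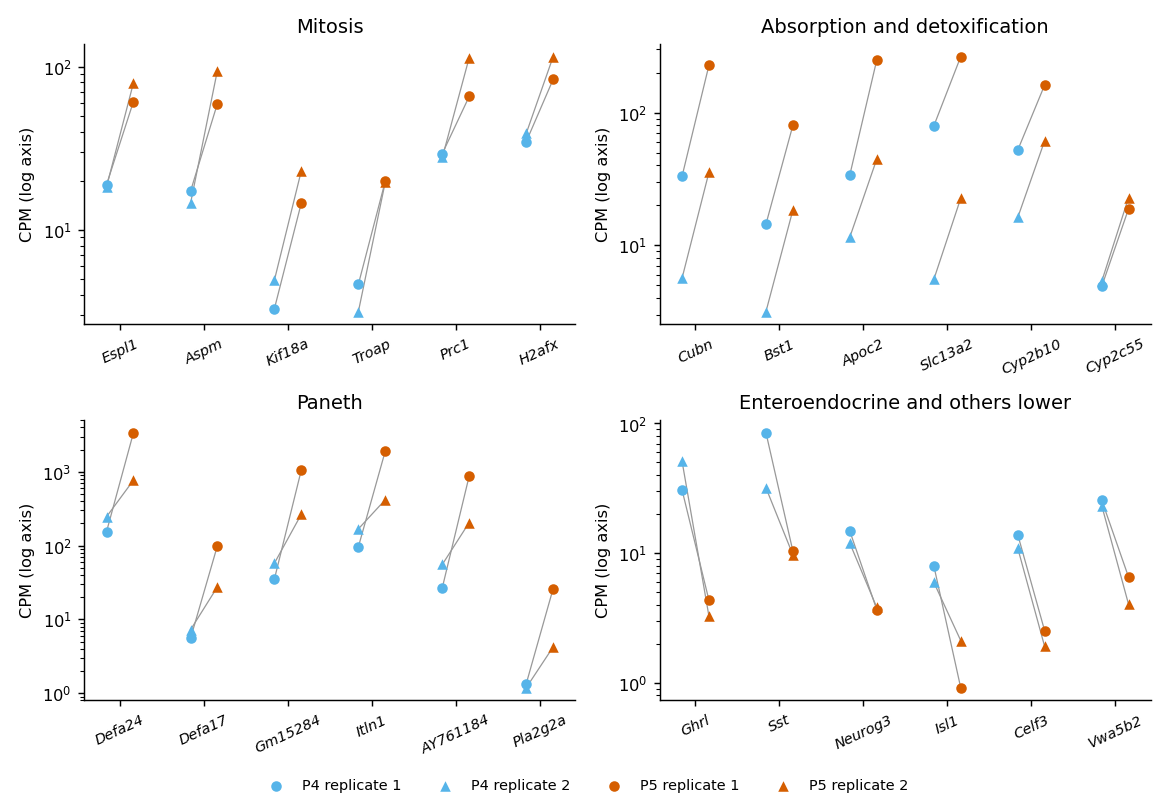
CPM on a log axis of 24 named genes in the 2 P4 libraries (blue) and the 2 P5 libraries (orange), with circles for replicate 1, triangles for replicate 2 and a line joining each same-numbered pair. Mitotic genes have replicates that differ less than the populations do. Absorptive genes such as Slc13a2 have parallel lines with replicate 1 above replicate 2, except Cyp2c55, whose replicates lie close together. Paneth genes have a steeper line in replicate 1, and the lower genes fall in both pairs.

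Paneth genes were higher in P5 mostly through 1 library. Of 19 measured, 9 were at least 2-fold higher and 15 were higher in both pairs, with a median log2 difference of 3.88 in replicate 1 and 0.90 in replicate 2. The summed level of the list was 1403 and 1809 CPM in P4, 12436 CPM in P5 replicate 1 and 3359 CPM in P5 replicate 2. It was 597317 and 442664 CPM in the libraries labelled P2. The part of Paneth cells in the sort in these differences was not tested.

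Defa24, an α-defensin, which is an antimicrobial peptide of Paneth granules, was at 155 and 246 CPM in P4 and at 3372 and 768 CPM in P5. Defa17 was at 5.51 and 7.22 CPM in P4 and at 99.1 and 27.5 CPM in P5. Itln1, the lectin intelectin, was at 96.1 and 168 CPM in P4 and at 1903 and 417 CPM in P5. Both P5 libraries were above both P4 libraries in these 3, and DESeq2 called them at adjusted p of 0.000696, 0.000363 and 0.00231. None of the 3 passed edgeR, and since they were chosen on this contrast, these values are descriptions. Without P5 replicate 1 the fitted log2 fold change of Defa24 was 1.94, against 3.37 with it.

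Gm15284, AY761184 and Gm14851, which are on no list, had the same shape. Gm15284 was at 35.4 and 57.8 CPM in P4 and at 1055 and 265 CPM in P5, and AY761184 was at 26.9 and 55.5 CPM in P4 and at 875 and 205 CPM in P5. In the mm9 annotation they lie on chromosome 8, Gm15284 at chr8:22274321-22275277 and AY761184 at chr8:22812991-22814117, near Defa17 at chr8:22766252-22767207 and Defa24 at chr8:22844966-22845943. Reads that map to more than 1 place were not counted, so levels within this family of near-identical genes are uncertain. Pnliprp2, a lipase, was at 6.98 and 4.55 CPM in P4 and at 108 and 21.1 CPM in P5, and it too had its highest level, 6069 and 2868 CPM, in the libraries labelled P2.

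Enteroendocrine genes were the main named group that was lower in P5. Of 28 measured, 10 were at least 2-fold lower (35.7%, against 0.605% of all genes) and 19 were lower in both pairs, each of these with both P5 libraries below both P4 libraries. The median log2 difference was -1.58 in replicate 1 and -0.51 in replicate 2. The summed level was 894 and 553 CPM in P4 and 268 and 499 CPM in P5, where the replicate 2 sum of P5 came close to that of P4. Nts and Pyy were the 2 genes of the list that were higher in both pairs, each with both P5 libraries above both P4 libraries. Nts, the neurotensin gene, was the only one of the list at least 2-fold higher, at 8.20 and 2.28 CPM in P4 and at 16.8 and 54.9 CPM in P5. Pyy, which encodes the gut hormone peptide YY, was at 1.47 and 1.88 CPM in P4 and at 2.74 and 6.34 CPM in P5.

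Ghrl, which encodes the hunger hormone ghrelin, was at 30.7 and 51.2 CPM in P4 and at 4.34 and 3.27 CPM in P5. The populations were far apart in both pairs, with a log2 fold change of -3.43 ± 0.72 (SE), and DESeq2 called it at an adjusted p of 0.000826. Sst, which encodes somatostatin, was at 84.7 and 31.9 CPM in P4 and at 10.4 and 9.72 CPM in P5, and DESeq2 called it at an adjusted p of 0.000774. The P5 libraries of Sst agreed closely and lay below both P4 libraries.

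Transcription factors of the lineage were lower as well. Neurog3, which starts the enteroendocrine programme, was at 14.7 and 11.9 CPM in P4 and at 3.66 and 3.80 CPM in P5. Its level was at most 2.43 CPM in each of the libraries of P1, P2 and P3, so P4 was its highest population. Isl1 was at 7.96 and 5.94 CPM in P4 and at 0.914 and 2.11 CPM in P5. Nkx2-2 was at 4.16 and 4.45 CPM in P4 and at 1.49 and 1.48 CPM in P5. Pax4 was at 3.06 and 2.37 CPM in P4 and at 0.800 and 0.317 CPM in P5, on a mean of 14.8 counts. In all 4 genes the populations were apart, and none passed edgeR or DESeq2.

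Genes on no list were among the largest differences in this direction. Celf3, an RNA-binding protein of the nervous system, was at 13.8 and 10.9 CPM in P4 and at 2.51 and 1.90 CPM in P5, and DESeq2 called it at an adjusted p of 0.0008. Vwa5b2 was at 25.6 and 23.2 CPM in P4 and at 6.51 and 4.01 CPM in P5. Baiap3, a protein of dense-core vesicle traffic, was at 13.5 and 9.79 CPM in P4 and at 1.94 and 2.01 CPM in P5. The populations were apart in these 3, and their replicates differed by less than 2-fold.

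Abcc8, the sulfonylurea receptor of the potassium channel that couples glucose to secretion, was at 5.51 and 4.95 CPM in P4 and at 1.14 and 1.58 CPM in P5. Cacna1h, a T-type calcium channel, was at 19.5 and 11.1 CPM in P4 and at 6.63 and 2.53 CPM in P5. Rimbp2, a protein of the presynaptic release site, was at 15.7 and 8.80 CPM in P4 and at 2.40 and 3.38 CPM in P5. Gfra3, a co-receptor for a neurotrophic factor, was at 6.73 and 8.90 CPM in P4 and at 2.40 and 1.48 CPM in P5. Each of these 4 had its highest mean level in the libraries labelled P2. For Gfra3 these were at 6.39 and 19.8 CPM, with replicate 1 below both P4 libraries.

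Vim, which encodes vimentin of mesenchymal cells, was at 19.1 and 11.4 CPM in P4 and at 1.49 and 2.53 CPM in P5. The other stroma, vessel and blood markers with it summed to 19.7 and 12.7 CPM in P4 and to 2.63 and 3.27 CPM in P5 over 6 genes, most of which was Vim itself. The immune markers summed to 6 and 10.7 CPM in P4 and to 10.5 and 4.12 CPM in P5, with Ptprc (CD45) at most at 1.26 CPM. Cdkn1c, which encodes the cyclin-dependent kinase inhibitor p57, was at 4.04 and 3.76 CPM in P4 and at 1.71 and 0.739 CPM in P5. It was the one gene of 11 G1 cyclins and inhibitors at least 2-fold apart.

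Interferon-induced and MHC class II genes held 4 of 23 genes at least 2-fold higher, and 17 were higher in both pairs. Ifit1 was at 2.57 and 0.890 CPM in P4 and at 13.1 and 2.85 CPM in P5. Isg15, a ubiquitin-like modifier, was at 1.59 and 0.791 CPM in P4 and at 6.40 and 2.22 CPM in P5. The populations were apart in both, at levels of a few CPM.

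The stem cell, goblet, tuft and polymerase II lists held 0 genes at least 2-fold apart in both pairs. For comparison, 27.6% of all genes were lower in both pairs. Of 24 stem cell genes 14 were lower in both pairs (58.3%), with P5 below both P4 libraries in 2, and Lgr5, the marker of crypt base stem cells, was at 94.3 and 114 CPM in P4 and at 71.8 and 103 CPM in P5. Of 19 goblet genes 15 were lower in both pairs (78.9%), and 8 had both P5 libraries below both P4 libraries (42.1%, against 15.3% of all genes), with median log2 differences of -0.34 and -0.32. Of 18 genes of tuft cells, the chemosensory cells of the epithelium, 9 were lower in both pairs and 8 had P5 below P4 in this way (44.4%). Of 26 genes of polymerase II and its elongation kinase P-TEFb, 16 were higher in both pairs (61.5%, against 30.8%) and 2 lower, and 11 had both P5 libraries above both P4 libraries (42.3%, against 16.3%), with median log2 differences of 0.11 and 0.12. Among them Cdk9, the kinase of P-TEFb that the OSCAR design rests on, was at 37.7 and 42.1 CPM in P4 and at 40.8 and 35.2 CPM in P5, and Polr2a, the largest subunit of the polymerase, at 148 and 162 CPM in P4 and at 162 and 183 CPM in P5.

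The levels in P1, P2 and P3, which the choice of genes did not use, split the chosen genes. The population with the highest mean log2 CPM of these 3 was taken for each gene. Of the 195 higher genes outside the G2M and enterocyte lists, it was P1 for 107, P2 for 39 and P3 for 49. Over all 13708 genes 34.5% were highest in P1, 37.1% in P2 and 28.4% in P3. Of the 83 lower genes 75 (90.4%) were highest in P2. The filter on low counts used all 10 libraries, so a gene with few counts in P4 and P5 could pass it through the population where it is high. With the filter on the 4 libraries of P4 and P5 only, 59 of the 83 passed, of which 57 (96.6%) were highest in P2, against 35.6% of the 12708 genes that passed. Within the 49 genes highest in P3, 48 had their highest level of all 5 populations in P5, and the populations P4 and P5 were apart in 48. Over the 195, P5 was the highest of all 5 populations for 64, and P4 was so for 18 of the 83 lower genes. The choice on P5 and P4 favours such an order, so these counts are descriptions.

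These classes also differed in how the replicates behaved. In the 107 genes highest in P1, replicate 1 exceeded replicate 2 by a median log2 difference of 1.45 within P5 and 1.32 within P4, and P4 and P5 were apart in 69. In the 49 genes highest in P3 the replicate difference was -0.49 within P5 and -0.12 within P4. In the 39 genes highest in P2, the median difference between P5 and P4 was 3.36 in replicate 1 and 1.46 in replicate 2, with replicates differing by 1.20 within P5 and -0.37 within P4.

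**Figure D3:**
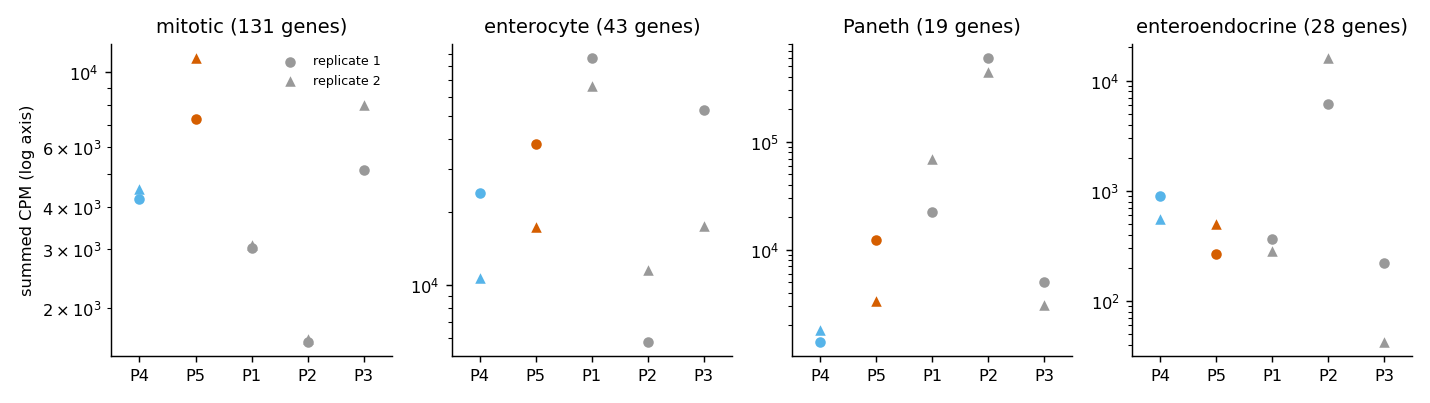
Summed CPM (y axis, log) of 4 gene lists in each library, with P4 in blue, P5 in orange and the other populations in grey, circles for replicate 1 and triangles for replicate 2. Mitotic genes have their highest value in P5 replicate 2, while the P4 and P5 values of the enterocyte list overlap, and Paneth and enteroendocrine genes are highest in the libraries labelled P2.

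The other contrast of EF1a high with EF1a low in the series, P3 minus P1 at low OSCAR, used libraries that took no part in the choice. At an adjusted p under 0.01 in edgeR, 8.02% of all genes were called higher in P3 and 7.59% lower. Of the 236 genes higher in P5, 28 (11.9%) were called higher and 17 (7.2%) lower in P3. Of the 83 genes lower in P5, 0 were called higher and 3 (3.61%) lower. Over both directions 48 genes were called, which became 61 without P3 replicate 1, 11 without P3 replicate 2, 0 without P1 replicate 1 and 1 without P1 replicate 2.

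The calls differed by group. Of the 131 mitotic-list genes 45 were called higher in P3 and 0 lower, with a median log2 fold change of 1.66, and of the 63 at least 2-fold higher in P5, 26 were called higher. Of the 77 mitotic genes outside the G2M list, 21 were called higher. Lists without such an excess in P5 also rose in P3. Of 43 S phase genes 13 were called higher (30.2%, against 34.4% of the mitotic genes), with a median of 1.62. Of 40 genes of origin licensing and the replication fork 9 were called higher (22.5%), with a median of 1.60. Of 27 nucleolar and ribosome biogenesis genes 14 were called higher (51.9%), so the rise was not confined to mitotic genes. Espl1 had a log2 fold change between P3 and P1 of 1.73 (edgeR adjusted p = 0.00242) and Aspm of 1.88 (adjusted p = 0.00345). Without P1 replicate 1 no gene of the table was called, and without P1 replicate 2 none of the chosen genes was called higher. Leaving out a library was counted for the whole table and for all chosen genes, not for each of these groups. Over the chosen genes together, the calls rest on both P1 libraries and in large part on P3 replicate 2.

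The Paneth and interferon genes went the other way. Of the 19 Paneth genes 0 were called higher and 4 lower in P3 (21.1%, against 7.59% of all genes). Of the 23 interferon and MHC class II genes 0 were called higher and 7 lower (30.4%). Lists with 0 chosen genes had a like share called lower. These were 6 of 22 immediate early and heat shock genes (27.3%) and 5 of 18 p53 target and apoptosis genes (27.8%). Defa17 had a log2 fold change between P3 and P1 of -3.83 (edgeR adjusted p = 0.00545) and Isg15 of -4.07 (adjusted p = 0.00199). The difference between both contrasts, tested as an interaction in edgeR, was called more positive at medium OSCAR for 67 genes (0.489% of all) and more negative for 45 (0.328%). Of the chosen genes 3 were called, Defa17, Isg15 and Apol7a, all more positive, and since the interaction holds the P5 minus P4 difference used in the choice, that direction is a description. When any one of the 8 libraries of P1, P3, P4 and P5 was left out, 0 genes of the table were called for the interaction. Of the 126 absorptive-list genes 6 were called higher (4.76%) and 13 lower (10.3%) in P3, near the 8.02% and 7.59% of all genes. Of the 28 enteroendocrine genes 0 were called higher and 1 lower, Sst, with a log2 fold change of -4.56 (adjusted p = 0.002).

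With the libraries labelled P2 in place of those labelled P3, 13.9% of all genes were called higher than in P1 and 15.2% lower. Of the 236 genes higher in P5, 15 (6.36%) were then higher and 99 (41.9%) lower, and of the 83 genes lower in P5, 29 (34.9%) were higher and 1 lower. Of the mitotic genes 1 was higher and 64 lower, so the direction in the second EF1a contrast depends on which libraries are the P3 gate. The mitochondrial share of the libraries labelled P3 moved with this contrast, and its part was not tested, apart from a fit without mitochondrially encoded genes, which called 49 of the chosen genes instead of 48.

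**Figure D4:**
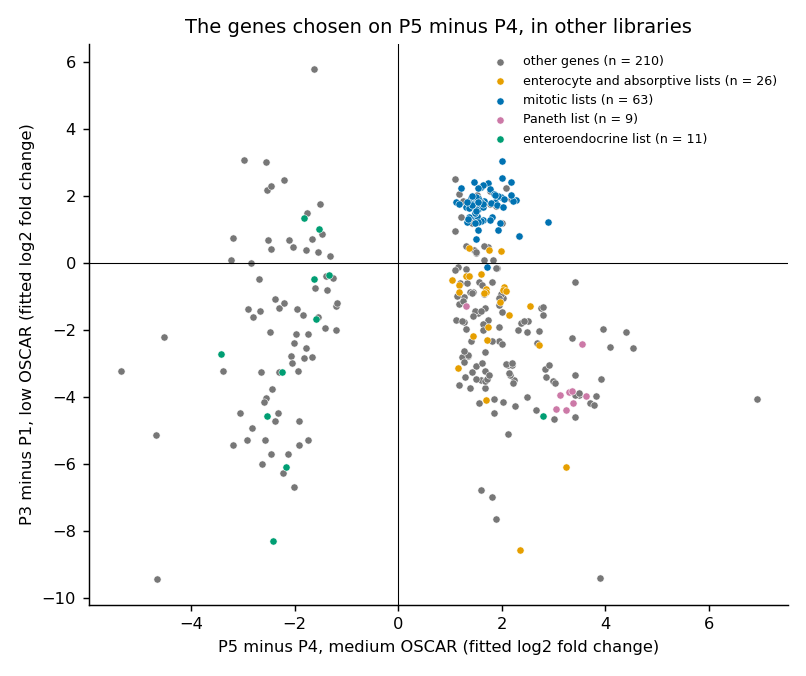
Fitted log2 fold change of P5 over P4 (x axis) against that of P3 over P1 (y axis) for the 319 genes at least 2-fold apart in both pairs, coloured by gene list. Mitotic genes (blue) are nearly all above 0 on both axes, Paneth genes (pink) are below 0 on the y axis, and the genes left of 0 are mostly below 0 on the y axis too.

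The 2-fold limit cut through a continuum. Just inside it were Spc24, a kinetochore subunit, with log2 differences of 1.0 and 1.30, and Incenp, of the chromosomal passenger complex, with 1.01 and 1.63. Just outside were Acot12, with 2.19 and 0.99, and Sectm1b, with 2.02 and 0.99. On the lower side, Trim35 (-1.01 and -1.26) and Fam20c (-1.03 and -1.36) were just inside, and Hap1 (-0.98 and -1.58) and Hpgds (-0.97 and -1.42) just outside. Of the chosen genes 61 of the 236 higher and 24 of the 83 lower overlap a gene on the opposite strand. Over all 13708 genes tested 4496 do. The chosen ones with such an overlap include Cubn, Bst1, Kif18a, Cdc20, Prc1, Neurog3, Nkx2-2 and Baiap3, and their counts may include reads of that partner.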

How the data were processed

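Poly-A RNA of 5 sorted populations was sequenced in 2 replicates each, which the study calls biological replicates without tying them to animals. The authors deposited counts of reads per gene, not normalized, made with TopHat 2.1.0 on mm9 and HTSeq 0.11.2 on exons without strand, and reads with several alignments were left out. Samples were grouped by their deposited titles. Of the 35006 row names, 183 rRNA names were dropped, as were reads without a gene name (11 to 33 per library).

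The 10 libraries were filtered with filterByExpr, scaled by TMM and fitted with edgeR 4.0.16 (R 4.3.3) as 5 population means, with 5 residual degrees of freedom. Each contrast was put to the quasi-likelihood test of edgeR, with Benjamini-Hochberg adjustment over 13708 genes, and with DESeq2 1.42.0 as an alternative, which gave no adjusted p for 532 genes. CPM used the scaled library sizes, and pair differences were log2 CPM with a prior count of 2. A fitted fold change of a gene with few counts depends on that kind of prior. The G2M and S phase lists came from Seurat 5.3.0 with names in mouse case, and the other lists were written from general knowledge. Members and lists were chosen with earlier results of these data known. Named genes are the 15 with the largest smaller-of-pair difference in each direction outside the G2M and enterocyte lists (mean of at least 20 counts over the 4 libraries), up to 6 members of each list, the 2 nearest genes on each side of the 2-fold limit, reference genes and genes called by a test. Nts, Pyy, Arl6ip1 and Apol7a were named after their values were seen. With 2 libraries against 2, an exact test of a single gene cannot pass 0.05, so p-values come from the fits across all genes and measure the spread between these libraries. Scripts were tested on simulated data. Figures used Python 3.11.15 and matplotlib 3.10.9. Flow cytometry and organoid assays were not analysed here.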

Additional observations from a re-analysis of the deposited data

Results flagged for a closer look

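For 2 of the named genes, P5 minus P4 at medium OSCAR differed from P3 minus P1 at low OSCAR by edgeR's interaction test over the 10 libraries. Defa17 had a log2 fold change of 3.31 at medium OSCAR and of -3.83 at low OSCAR, a difference of 7.14 (adjusted p = 0.00915). Isg15 had 1.86 and -4.07, a difference of 5.92 (adjusted p = 0.00884). The interaction holds the P5 minus P4 difference on which these genes were chosen, so its size for them is in part drawn from the choice. With the libraries labelled P2 in place of P3, Defa17 was 3.41 above P1 (edgeR adjusted p = 0.0046), close to its difference at medium OSCAR, and Isg15 was at -3.26 (adjusted p = 0.0015). Both P5 libraries were above both P4 libraries in each gene. Without any one of the 8 libraries the interaction was called for 0 genes.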

How the results depend on the processing

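Between P5 and P4, 0 genes were called with edgeR over the 10 libraries, also at an adjusted p under 0.05, with DESeq2 size factors, with rRNA names kept, with the 4 libraries alone and without any one of these 4. The call count was 195 without the filter, 29 with the DESeq2 test, 1 with the replicate block (Gm15299) and 567 with the 4 libraries alone and the block. The last of these fits left the fewest residual degrees of freedom. Same-numbered libraries deviated together (correlation over genes above 0.1) in 9 of 10 pairs of populations, with 0.554 between P4 and P5 and -0.06 to 0.31 in the others. With 2 numbers and no source that ties them to an animal or day, this is a hint from the data only. The block moved the calls of P3 minus P1 from 2140 to 2601, those of the chosen genes in it from 48 to 71, and those of the interaction from 112 to 627.

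For P3 minus P1, the chosen genes in it and the interaction, the counts were 4656, 129 and 2375 at an adjusted p under 0.05, 4005, 169 and 2299 without the filter, and 3558, 102 and 1978 with DESeq2. The interaction was called for 362 genes with DESeq2 size factors and for 375 without mitochondrially encoded genes. With the libraries labelled P2 in place of P3 the first 2 counts were 3985 and 144. Leaving out 1 library gave 0 (P1 replicate 1) to 2122 (P3 replicate 1) for P3 minus P1, 0 to 61 for the chosen genes and 0 to 0 for the interaction. A library left alone in its population was assumed to vary like the others.

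The 236 genes at least 2-fold higher became 534 at 1.5-fold, 55 at 3-fold and 122 with crossed pairs. The 83 lower became 263 at 1.5-fold, 16 at 3-fold, 143 and 37 with prior counts of 0.5 and 5, and 33 at a mean of 20 counts. With the filter on the 4 libraries of P4 and P5, chosen after seeing the data, 57 instead of 75 lower genes were highest in P2. With replicate 2 alone the counts were 500 higher and 269 lower, and with replicate 1 alone 585 and 384. Of 102 named genes, 4 changed sign when a library was left out. Slc13a2 ranged from -0.89 to 4.69 (log2), Slc34a2 from -0.37 to 3.07, Gm15299 from -0.56 to 8.84 and Cdk9 from -0.18 to 0.0331. The causes were not tested. Depth limited the lower genes most, since 50 of the 83 had a mean under 20 counts.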
